A study of Homo sapiens with 5 samples.

Results

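The comparison set the late arrays of an induction course against its early arrays, in IMR32, an established human neuroblastoma cell line that carries a short hairpin RNA against MEIS1b under doxycycline control, integrated in its genome. Its members are 4 of the 5 arrays: those at 24 h and 48 h of doxycycline (early, 2 arrays) and those at 96 h and 192 h (late, 2 arrays), chosen by their labelled induction time. All 4 cultures carried the hairpin and had doxycycline in the medium, and the labels distinguish the groups by induction time. The uninduced array at 0 h, which carries the same hairpin without doxycycline, was kept out of the test and is given beside it. Total RNA was measured on Affymetrix U133 Plus 2.0 arrays, with 1 array per time, and whether the line is 1 clone or a pool, and whether later cultures were split or grew denser, is not given in the sources used here. No culture with doxycycline and without this hairpin was analysed here, so time in doxycycline, time in culture and time with the hairpin cannot be told apart.

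IMR32 cells resemble the precursors of sympathetic neurons, with high activity of the transcription factors that specify the noradrenergic lineage. Neuroblastoma cells of this kind can take up neuronal features, such as neurites, axonal transport motors and vesicle release machinery, while cells in the contrasting mesenchymal state carry collagens and YAP1 activity. MEIS1 belongs to the TALE homeobox proteins, which bind DNA in complexes with PBX and HOX factors. Of the markers of this lineage, GATA3 (2681 to 3339.5 on the 4 induced arrays), MYCN (3957.2 to 4418.4) and PHOX2A (842.7 to 1202.7) were bright. TH, the enzyme that starts catecholamine synthesis, read 4.2 to 28.5, and its mean was under the signal filter. All values are MAS5 signals on a linear scale unless a log2 change is named.

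A limma fit compared the late mean with the early mean for 11944 genes on the scale log2(signal + 4.7). This scale understates the change of dim genes. Genes with a Benjamini-Hochberg adjusted p under 0.05 are said to have risen or fallen, and ± gives the standard error (SE) of the log2 change, late minus early, with 2 arrays in each group. The 2 arrays of a group are different times, so the residual spread holds change between those times as well as noise, and nothing replicates a single time. With 2 arrays against 2, an exact two-sided permutation test of a single gene cannot give a p below 0.333, so the calls rest on limma's pooling of the spread across genes.

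In all, 65 genes rose (0.544% of those tested) and 20 fell (0.167%), together 85 genes or 0.712%, and 1543 genes had an unadjusted p under 0.05. In every one of the 85 genes both late arrays lay on one side of both early arrays. That alone is common, since 21.9% of all genes had both late arrays above and 21.5% both below. Of all changes 49.5% were positive. The change was at least 2-fold in 34 of the rises and 11 of the falls, where 0.862% of all genes had separated groups and a rise of that size and 0.41% a fall. When the arrays were scaled to one median, 102 genes rose and 113 fell, so 47.4% of the calls were rises against 76.5% here, and the median change of all genes went from -0.003 to -0.10. No gene passed when the moderation took no account of signal level, where 1377 had an unadjusted p under 0.05, or when the signal filter was dropped, where 1835 did. Leaving out the 192 h array lost 44 of the 85 calls, the 24 h array 32, the 96 h array 7 and the 48 h array 6, and 36 genes passed in all 4 of these fits.

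**Figure D1:**
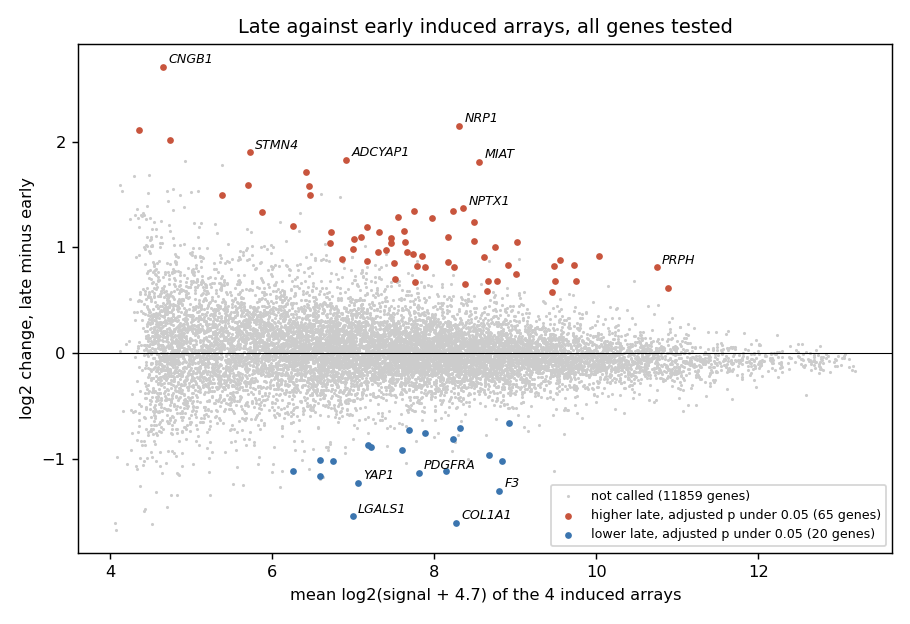
Log2 change from the early to the late arrays (y axis) against the mean log2(signal + 4.7) of the 4 induced arrays (x axis), 1 point per gene, with the 65 genes that rose in red, the 20 that fell in blue and the rest in grey. The called genes reach from -1.60 (COL1A1) to 2.70 (CNGB1).

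The median signal of all probe sets was 16 and 18.6 on the early arrays and 19 and 18 on the late ones, and GAPDH probe sets at the 3' end read 1.02 to 1.08 times those at the 5' end. The same ratio for ACTB was 1.37 and 1.43 early and 1.38 and 1.25 late. The 24 poly-A spike-in probe sets had a mean log2 value of 8.33 at 24 h and 7.78 at 48 h against 7.61 at 96 h and 7.98 at 192 h, a difference of -0.26 between groups that overlapped. With the spike-in level as a covariate 178 genes rose and 106 fell, and these included all 85 of the calls above. Markers of other cell types were low: the summed signal of the named Schwann and glial markers was 35.7 and 33.5 early and 53.4 and 49.2 late, and that of blood and endothelial markers 54 and 68.8 early and 62.6 and 30 late. The part of these markers in the calls was not tested. Epithelial markers summed to 87 and 99.6 early and 108.1 and 80.6 late. In bulk RNA a gene that rises in each cell and a larger share of cells that carry it cannot be told apart.

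The targeted gene did not separate early from late. MEIS1 read 1052 at 0 h, 851.5 and 847.2 at 24 and 48 h, and 857.0 and 786.6 at 96 and 192 h. Its late values lay on both sides of its early ones, and the log2 change was -0.05 ± 0.11 (limma adjusted p = 0.905). The other MEIS1 probe set had a change of -0.17. Of 12 tested TALE homeobox genes 0 passed, and 0 had an unadjusted p under 0.05, with a median change of -0.03. PKNOX2 had a change of -0.42 (adjusted p = 0.437) and MEIS3 of 0.29 (0.577).

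Among the genes that rose were the 5 that mark the late arrays. They were named with earlier results of these data known, so their number is no evidence of its own. MIAT, a long non-coding RNA of neurons and heart, read 190.6 and 202.5 early and 711.0 and 691.5 late, against 143.8 at 0 h. The 2 late arrays were close to each other and far above both early ones, and the change of 1.81 ± 0.11 (3.51-fold) had the lowest adjusted p of all genes, 5.97e-05 by limma. Of its 4 probe sets over the signal filter 3 had a positive change and 1 had -0.39. Over the alternative settings described below, the MIAT change ranged from 0.89 to 1.85. Its highest limma adjusted p among them was 0.112, so the MIAT call did not hold in every setting. NRP1, a co-receptor for class 3 semaphorins and VEGF, read 131.5 and 161.9 early and 457.1 and 960.3 late. It was the only one of the 5 that went on upward by over 1 log2 unit from 96 to 192 h (1.06), and its change was 2.15 ± 0.26 (adjusted p = 0.00707), with all 3 probe sets positive.

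CNGB1, a subunit of the rod-type cyclic nucleotide-gated channel, went from 3.4 and 7.3 early to 64.1 and 55.2 late. With 1.8 at 0 h, it was under the signal filter of 17.9 on every array but the late ones and was tested only through them, as were SH2D3C and LOC100505711, so these 3 of the 65 rises had to differ and their calls are no support. The fitted change of CNGB1 was 2.70 ± 0.37 (limma adjusted p = 0.00988), but 3.28 with a 4 times smaller offset and 1.70 with a 4 times larger one, where NRP1 (2.05) and MIAT (1.74) had larger changes. STMN4 and STMN2 encode stathmins, neuronal regulators of microtubule assembly. STMN4 read 20.8 and 24.7 early and 96.2 and 98.7 late (1.90 ± 0.24, adjusted p = 0.0094). STMN2 read 17.5 and 23.3 early and 73.3 and 58.4 late (1.49 ± 0.28, adjusted p = 0.0408). Both stathmin genes were brighter on each late array than on either early array, as were all 65 rises and 21.9% of all genes. The STMN2 call did not hold without the 24 h (adjusted p = 0.0781), 96 h (0.1) or 192 h (0.0816) array, while those of the other 4 genes held in each of the 4 fits with 1 array left out.

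**Figure D2:**
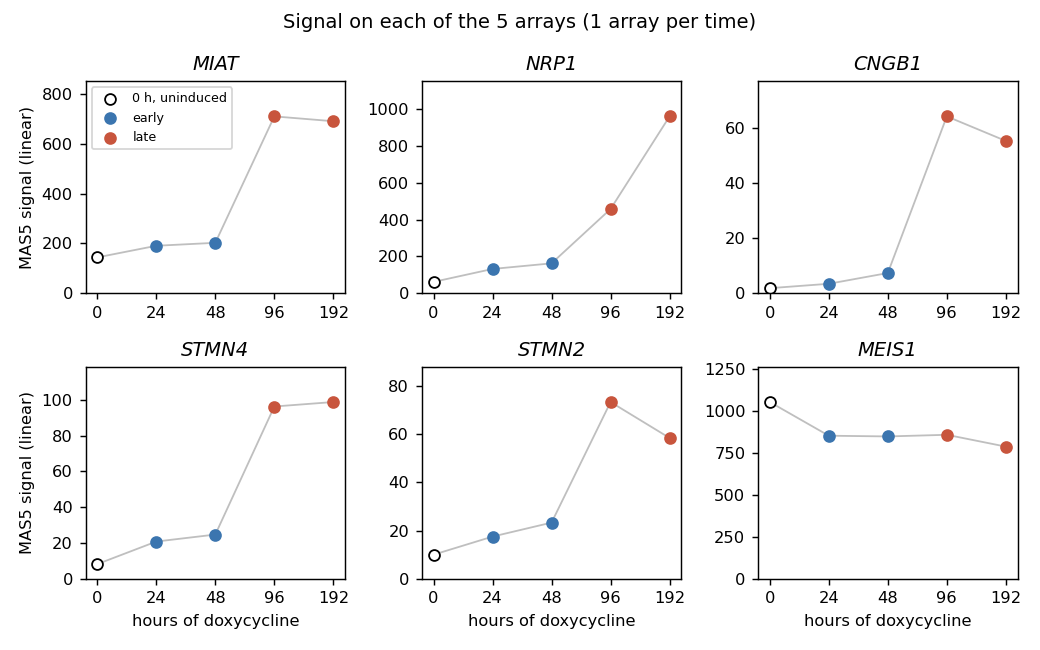
MAS5 signal (y axis, linear, from 0) on each of the 5 arrays in time order (x axis, not to scale), with the uninduced array as an open circle, early arrays in blue and late arrays in red. MIAT, CNGB1, STMN4 and STMN2 step up between 48 and 96 h and then level off, NRP1 goes on to 960.3 at 192 h, and MEIS1 stays between 786.6 and 857.0 on the induced arrays.

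The other 7 of the 12 largest rises were those of SH2D3C, LOC100505711, ADCYAP1, ICA1, NSG2, CADPS and UNC5A. ADCYAP1, which encodes the neuropeptide PACAP, read 43.0 and 81.0 early and 156.0 and 316.1 late (1.83 ± 0.32), and went up at each step. ICA1, a BAR-domain protein of secretory granule formation, read 37.1 and 49.0 early and 125.7 and 180.7 late (1.71 ± 0.23). CADPS, which primes dense-core vesicles for release, read 53 and 40.2 early and 130.4 and 167.3 late (1.58 ± 0.21). In each of these 3 genes both late arrays lay above both early ones, as in all 65 rises and 21.9% of all genes. NSG2, a neuronal endosomal protein, went from 25.9 and 24.8 to 71.5 and 102.7 (1.59), and UNC5A, a netrin receptor, from 37.7 and 61.1 to 116.5 and 178.6 (1.5). SH2D3C (5.4 and 4.9 early, 33.6 and 42.6 late; 2.11) and LOC100505711 (6.2 and 11.6 early, 55.8 and 43.0 late; 2.01) were tested only through their late arrays, with means of 18.8 and 25 over the 5 arrays, and with a 4 times larger offset their changes were 1.24 and 1.30. Without the 192 h array ADCYAP1 (limma adjusted p = 0.0628), NSG2 (0.13), UNC5A (0.112), SH2D3C (0.214) and LOC100505711 (0.0834) did not pass; without the 96 h array SH2D3C (0.0565) and LOC100505711 (0.0932) did not.

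Promoter sequence was available in RefSeq (GRCh38.p14) for 45 of the 65 rises and 14 of the 20 falls. The 250 bases before each start were searched on both strands for TGACAG, the core that MEIS proteins bind, and for TTCAGCACC, the left part of the RE1 element bound by the neuronal repressor REST. TGACAG stood before 5 genes that rose (11.1% of those with sequence) and 4 that fell (28.6%), against 14.5% of 9760 tested genes and 15.6% of all genes listed. TTCAGCACC stood before 1 gene that rose, CNGB1 (2.22%), and 1 that fell, RAPGEF5 (7.14%), against 0.297% of tested genes and 0.355% of all listed. These are counts of letters and are not sites shown to be bound. The TTCAGCACC shares of the calls rest on 1 gene each. CNGB1 was tested only through its late arrays, so its match is no support. RAPGEF5 had 2 probe sets over the signal filter, with changes of -0.75 and 0.26. The stretches below are those of CNGB1, the 1 rise that holds TTCAGCACC, of MIAT, the one with the lowest p, and of BAMBI and PDGFRA, a gene that rose and one that fell which both hold TGACAG. Matches are in capitals, each strand reads 5′ to 3′ towards the start, and MIAT holds neither set of letters.
CNGB1 (chr16:57971129-57971378, minus strand): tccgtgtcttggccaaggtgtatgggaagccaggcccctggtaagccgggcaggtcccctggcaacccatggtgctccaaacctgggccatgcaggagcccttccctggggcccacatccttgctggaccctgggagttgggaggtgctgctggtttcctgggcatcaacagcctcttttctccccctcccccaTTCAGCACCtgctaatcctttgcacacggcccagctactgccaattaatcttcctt
MIAT (chr22:26646179-26646428, plus strand): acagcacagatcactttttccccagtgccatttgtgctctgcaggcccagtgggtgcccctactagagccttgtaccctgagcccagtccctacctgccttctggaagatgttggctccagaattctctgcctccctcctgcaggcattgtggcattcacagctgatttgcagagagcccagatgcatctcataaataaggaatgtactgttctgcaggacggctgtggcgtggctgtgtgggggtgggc
BAMBI (chr10:28677271-28677520, plus strand): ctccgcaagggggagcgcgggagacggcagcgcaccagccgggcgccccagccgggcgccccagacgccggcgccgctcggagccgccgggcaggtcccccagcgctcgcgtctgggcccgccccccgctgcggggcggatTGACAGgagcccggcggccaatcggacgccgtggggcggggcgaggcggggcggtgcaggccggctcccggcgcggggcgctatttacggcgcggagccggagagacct
PDGFRA (chr4:54229043-54229292, plus strand): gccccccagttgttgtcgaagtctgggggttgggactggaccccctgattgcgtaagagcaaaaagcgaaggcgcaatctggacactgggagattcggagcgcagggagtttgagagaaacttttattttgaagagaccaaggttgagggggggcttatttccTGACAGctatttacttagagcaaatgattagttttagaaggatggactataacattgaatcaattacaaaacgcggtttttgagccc

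Of 38 tested genes of the neuronal cytoskeleton and growth cone 7 rose (18.4%, against 0.544% of all genes) and 0 fell, with a median change of 0.32 against -0.003 over all genes, and 31 of the 38 changes were positive. Besides STMN2 and STMN4 these were the kinesins KIF1A, KIF5A and KIF5C, which carry vesicles and organelles along axons, the adhesion molecule L1CAM and the intermediate filament gene PRPH. STMN2 and STMN4 are also late markers. This list and those below were written with earlier results of these data known, so their shares are no evidence of their own. KIF1A read 138.7 and 176.3 early and 355.2 and 416.7 late (1.27 ± 0.15, limma adjusted p = 0.00666). KIF5C read 677.7 and 839.5 early and 1285.2 and 1600.5 late (0.92 ± 0.14, adjusted p = 0.017), with all 3 probe sets positive. L1CAM was level within each group, at 116.1 and 116.3 early and 239.8 and 266.4 late (1.09 ± 0.14, adjusted p = 0.00954). PRPH, which encodes peripherin, was higher on each early array than at 0 h, and read 599.3 at 0 h, 1092.8 and 1528.7 early and 2306.7 and 2236.6 late (0.81 ± 0.15, adjusted p = 0.0393). The PRPH call did not hold without the 24 h array (0.213), and that of KIF5A (0.89) not without the 24 h (0.147) or 192 h array (0.137). In the fits with 1 array left out 4 to 10 genes of the list rose, and under equal array medians there were 7 rises and 1 fall.

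Of 31 tested genes of synaptic vesicles and exocytosis 3 rose (9.68%, against 0.544% of all genes) and 0 fell, the median change was 0.33, and 28 of the 31 changes were positive, against 49.5% of all genes. SNAP25, a core component of the vesicle fusion complex, read 198.8 and 187.3 early and 370.3 and 471.8 late (1.10 ± 0.14, limma adjusted p = 0.00954). SYT11, a vesicle-bound synaptotagmin, read 475.9 and 591.7 early and 914.1 and 979.0 late (0.83 ± 0.13, adjusted p = 0.017). All 3 probe sets were positive for both genes and for CADPS, the third call, and 1 CADPS probe set had a change of 0.02. Further genes of the same list that did not pass were SYP at 1.05, SNAP91 at 0.80 and DNM1 at 0.75, chosen after their values were seen. The negative changes of the list were those of SYT2 (-0.63), NRXN3 (-0.41) and SYT13 (-0.32), which did not pass either. The list median kept its sign with medians set equal (0.23) and after quantile normalisation (0.28), with 3 rises in both, while with the mean over probe sets 0 passed.

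Of 13 tested genes of granins, neuropeptides and their processing ADCYAP1 rose (7.69%, against 0.544% of all genes) and 0 fell (0.167% of all genes). The median was 0.52 and 9 changes were positive (69.2%, against 49.5% of all genes). With array medians set equal 4 rose, and after quantile normalisation 0 did. SCG2 had a change of 1.0 (limma adjusted p = 0.0864), PCSK1N of 0.94 (0.0553) and CHGA of 0.68 (0.0796), from 919.7 and 1336.5 early to 1807.8 and 1756.3 late. Of 10 catecholamine genes DDC, the decarboxylase that yields dopamine, rose from 233.0 and 383.4 early to 593.3 and 615.6 late (1.0 ± 0.19, limma adjusted p = 0.0393). As the only call DDC was 10% of this list, against rises in 0.544% of all genes. The others included CYB561 at 0.91 (0.258) and PNMT at -0.44 (0.828), and the list median was 0.02 (-0.07 with array medians set equal). DBH, the enzyme that makes noradrenaline, had 153.9 and 174.5 early and 264.4 and 103.3 late, so its late arrays lay on both sides of the early ones.

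Among guidance ligands and receptors 1 of 21 semaphorin, plexin and neuropilin genes (NRP1) and 1 of 21 netrin, slit and ephrin genes (UNC5A) rose, with 0 falls and medians of 0.26 and 0.12. Each was 4.76% of its list, against rises in 0.544% of all genes. NRP1 is also a late marker, so its call is no support for its list. NRP2, the second neuropilin, had a change of -0.73 that did not pass (limma adjusted p = 0.237), with 59.2 and 58.6 early and 37.6 and 30.2 late, and 7 of its 8 probe sets were negative. SEMA4B had 0.64 (0.251), EPHB4 1.43 (0.196) and ROBO3 -0.74 (0.46). Of the 2 EPHB4 probe sets over the signal filter 1 was positive, and the other had -0.44. Of 4 neurotrophin and GDNF family receptors 0 passed, and 1 rose under equal array medians. NTRK3, the receptor for neurotrophin-3, read 54.2 and 74.4 early and 114.5 and 299.5 late, with all 9 probe sets positive. Its groups did not overlap, its late arrays lay far apart, and the change of 1.48 ± 0.34 did not pass (limma adjusted p = 0.0802). RET had 0.44 (0.688).

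Of 30 ion channel genes SCN3B, an auxiliary sodium channel subunit, rose from 163.8 and 185.5 early to 323.0 and 299.4 late (0.82 ± 0.13, limma adjusted p = 0.0254), and the list had a median of 0.31. SCN3B was 3.33% of the list, against rises in 0.544% of all genes. KCNK3 had 0.80 (0.254), and HCN2, at 2.9 and 29.2 early and 21.5 and 32.6 late, 0.96 (0.543). Of 25 genes of cyclic nucleotide signalling CNGB1 and PDE2A rose (8%, against 0.544% of all genes) and 0 fell (0.167% of all genes). The median was 0.05 and 14 changes were positive. CNGB1 is a late marker and was tested only through its late arrays, so its call is no support for the list. The largest uncalled changes were negative, those of PRKG2 (-1.46), PDE3A (-0.91) and PDE5A (-0.91). Under equal array medians there were 2 rises and 3 falls, with a median of -0.04. PDE2A, a cGMP-stimulated phosphodiesterase, went from 291.0 and 431.3 to 648.9 and 624.9 (0.84), and not past the threshold without the 24 h array (adjusted p = 0.11). Of 20 neurotransmitter receptor genes 0 passed, and 1 fell with array medians set equal. CHRNA1, the muscle-type acetylcholine receptor subunit, had 149.7 and 138.3 early and 89.7 and 41.7 late (-1.17, adjusted p = 0.0935), and GRIK3 had 0.88 (0.322).

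Transcription factors of the adrenergic lineage gave 1 rise among 23 tested genes (4.35%, against 0.544% of all genes) and 0 falls. Their median was 0.21 and 19 changes were positive (82.6%, against 49.5% of all genes). With array medians set equal there were 3 rises and 1 fall. SIX3, a homeobox factor of forebrain and eye, read 100.8 and 82.2 early and 185.2 and 247.5 late (1.19 ± 0.18, limma adjusted p = 0.017; 0.0628 without the 192 h array). GATA2, at 38.3 and 63.8 early and 119.3 and 112.6 late, had 1.15 (limma adjusted p = 0.0564), and TBX3 had 0.88 (0.0523). Of the 3 GATA2 probe sets over the signal filter 2 were positive, and the lowest change was -0.36. Of 7 tested neuroblastoma markers 0 passed, with changes up to 0.68 (CHGA). PHOX2A had 0.35, while those of GATA3 (0.10), MYCN (0.09) and DBH (0.02) became -0.0038, -0.012 and -0.082 with array medians set equal. BAMBI, which blocks TGF-beta and BMP receptors as a pseudoreceptor, read 331.0 and 387.0 early and 647.9 and 859.3 late (1.05 ± 0.15, limma adjusted p = 0.0105). It was the 1 rise among 30 TGF-beta, BMP and ID genes (3.33%, against 0.544% of all genes), where the list median was 0.06. With array medians set equal it was -0.03, with 1 rise and 1 fall.

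**Figure D3:**
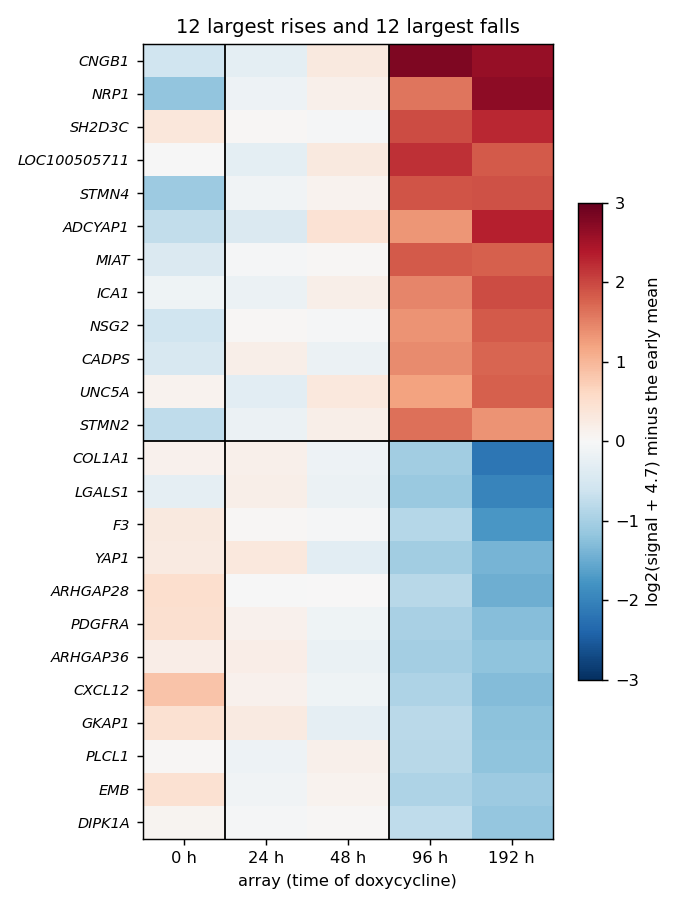
Heat map of log2(signal + 4.7) minus the early mean, for the 12 largest rises (upper rows) and the 12 largest falls (lower rows) on the 5 arrays (columns, the 0 h array first), with red above and blue below the early mean. Both late columns lie on one side of both early columns in each row, as in all 85 calls, from CNGB1 (2.70) to COL1A1 (-1.60).

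Among the 20 genes that fell, COL1A1, a chain of type I collagen, read 592.0 and 479.2 early and 257.8 and 115.1 late, against 584.4 at 0 h. Its change of -1.60 ± 0.27 (limma adjusted p = 0.0319) was the largest fall, and all 4 probe sets were negative, the weakest at -0.03. LGALS1, which encodes the sugar-binding protein galectin-1, fell from 240.1 and 188.4 to 96.5 and 50.6 (-1.54 ± 0.25, adjusted p = 0.0257). F3, tissue factor, the starter of blood coagulation, fell from 716.5 and 680.0 to 385.3 and 204.2 (-1.30 ± 0.22). In these 3 genes the signal dropped at both 96 h and 192 h. YAP1, the transcriptional effector of the Hippo pathway, fell from 250.3 and 158.9 to 94.1 and 72.5 (-1.23 ± 0.22, adjusted p = 0.0349), with all 3 probe sets between -1.23 and -1.05.

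PDGFRA, a receptor tyrosine kinase of mesenchymal and neural crest cells, fell from 359.7 and 297.2 early to 164.5 and 131.6 late (-1.13 ± 0.16, limma adjusted p = 0.0105). The other PDGFRA probe set over the signal filter had a change of -0.05. CXCL12, the ligand of CXCR4, fell from 117.6 and 98.6 to 54.5 and 41.2 (-1.11 ± 0.22). ARHGAP28 and ARHGAP36 fell by 1.16 and 1.11 on the log2 scale, and ARHGAP36 went from 477.0 and 355.5 to 201.6 and 175.8. GKAP1, PLCL1, EMB and DIPK1A fell by 1.02, 1.02, 1.01 and 0.96. Every one of these genes was lower on each late array than on either early array, as were all 20 falls and 21.5% of all genes. The calls of YAP1 (adjusted p = 0.119 and 0.0556), CXCL12 (0.178 and 0.13) and ARHGAP28 (0.0747 and 0.119) did not hold without the 24 h and without the 192 h array. Nor did those of GKAP1 without the 192 h array (0.059), PLCL1 without the 48 h (0.103) or 192 h array (0.126), and EMB without the 24 h (0.051), 48 h (0.0949) or 192 h array (0.104).

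Among 38 extracellular matrix genes tested, 2 fell and 0 rose. The falls were COL1A1 and COL25A1 (205.6 and 188.9 early, 117.2 and 93.8 late; -0.88 ± 0.16), beside falls in 0.167% of all genes. With array medians set equal 7 of the list fell, and after quantile normalisation or with the mean over probe sets 0 did. The median was -0.26 and 11 of the 38 changes were positive (28.9%, against 49.5% of all genes). The COL25A1 call did not hold without the 24 h (limma adjusted p = 0.119) or 192 h array (0.122). Among 21 mesenchymal transcription factors and Hippo genes YAP1 fell and SOX9 rose, beside falls in 0.167% and rises in 0.544% of all genes. The list median was -0.23 and 6 changes were positive (28.6%, against 49.5% of all genes). SOX9, a factor of cartilage, glia and neural crest, read 138.7 and 122.5 early and 278.0 and 413.5 late (1.35 ± 0.18, adjusted p = 0.00981), against 130.1 at 0 h, and so moved opposite to the list median. Of 28 genes of the ADAMTS, MMP and plasminogen list ADAMTS5 rose (0.82) and F3 fell, beside rises in 0.544% and falls in 0.167% of all genes. The median was -0.04, and under equal array medians there were 2 rises and 2 falls. The summed signal of 5 fibroblast markers was 488.1 and 442.4 early and 288.4 and 249.9 late, almost all of it PDGFRA, PDGFRB and THY1. PDGFRB had 52.8 and 58.5 early and 37.6 and 40 late, groups that did not overlap, with a change of -0.47 (adjusted p = 0.449), and THY1 had 0.14, or -0.047 without the 24 h array. DCN and LUM read 4.7 to 19 on the induced arrays. The part of other cell types in these falls was not tested.

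**Figure D4:**
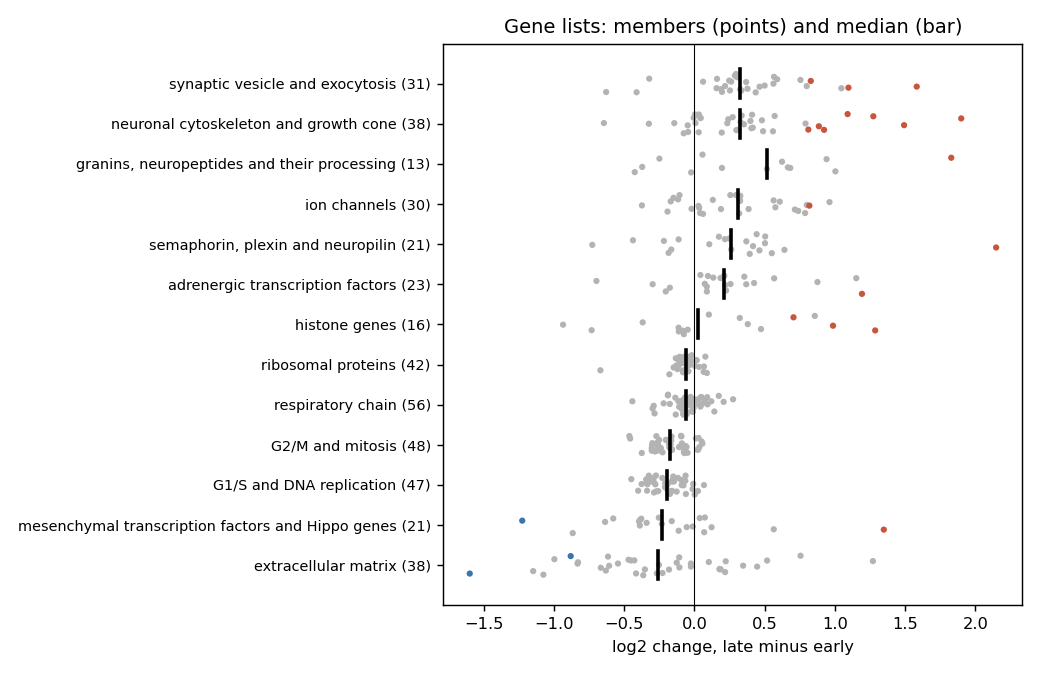
Log2 change from early to late (x axis) of the tested members of 13 gene lists (rows, with the number tested), 1 point per gene, red for genes that rose, blue for genes that fell and grey for the rest, with a black bar at the list median. Bars lie at 0.32 and 0.33 for the neuronal structure and vesicle lists, at -0.17 and -0.19 for the cell cycle lists and at -0.26 for the extracellular matrix.

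Of 47 G1/S and DNA replication genes 0 passed, 3 changes were positive and the median was -0.19, and 11 had an unadjusted p under 0.05 in the downward direction (5.66% of all genes did). Of 48 G2/M and mitosis genes 0 passed, 7 changes were positive, the median was -0.17 and 11 had such a p. ORC1, part of the origin recognition complex, had -0.45 (limma adjusted p = 0.171), TYMS -0.40 (0.188), the mitotic kinase MELK -0.46 (0.101) and the kinetochore gene SPC25 -0.46 (0.181). Both medians stayed negative in the fits without each array in turn, at -0.25 to -0.16 for G1/S and -0.25 to -0.06 for G2/M, and with medians set equal (-0.29 and -0.27). In the G2/M list the median step was -0.29 from 48 to 96 h and 0.16 from 96 to 192 h. CDKN1C, an inhibitor of cyclin-dependent kinases, rose from 114.1 and 149.1 early to 217.0 and 264.1 late (0.85 ± 0.17, adjusted p = 0.0497), the only call among 12 D cyclins and CDK inhibitors, and did not pass without the 24 h (0.13) or 192 h array (0.16). CDKN1C was 8.33% of that list, against rises in 0.544% of all genes. CDKN2D had 0.39 (limma adjusted p = 0.491) and RBL1 -0.38 (0.44).

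Of 16 tested histone genes 3 rose (18.8%, against 0.544% of all genes) and 0 fell (0.167% of all genes), with a median of 0.03. With array medians set equal 2 rose and the median was -0.07. H2BC21 read 119.4 and 111.6 early and 292.0 and 284.9 late (1.29 ± 0.14, limma adjusted p = 0.00301), H2AC6 90.9 and 81.5 early and 166.2 and 184.6 late (0.99), and H2BC5 136.6 and 141.2 early and 237.9 and 221.2 late (0.71). These 3 were flat within each group and stepped between 48 and 96 h. H2AC6 did not pass without the 192 h array (adjusted p = 0.1) and H2BC5 not without the 24 h (0.112), 96 h (0.0855) or 192 h array (0.106). Replication-dependent histone genes are near copies of each other, and probe sets for one can take up transcripts of another.

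Of 17 long non-coding RNAs MIAT and MALAT1 rose (11.8%, against 0.544% of all genes). MIAT is also a late marker, so its call is no support for the list. MALAT1, a nuclear-speckle RNA, read 560.3 and 707.3 early and 1118.2 and 1136.2 late (0.84 ± 0.13, limma adjusted p = 0.017), with all 11 probe sets positive, from 0.09 to 1.07. Of 35 hypoxia and glycolysis genes ENO2, the neuronal enolase, and MXI1 rose (5.71%, against 0.544% of all genes), with a list median of -0.03. ENO2 read 147.8 and 178.0 early and 290.1 and 290.5 late (0.82), and MXI1 had a change of 0.58. Neither call held without the 24 h array or without the 192 h array. Of 22 interferon-stimulated and MHC class I genes USP18 rose (4.55%, against 0.544% of all genes) and 0 fell. USP18 read 263.2 and 225.9 early and 643.8 and 409.9 late (1.06 ± 0.18, limma adjusted p = 0.0339). With array medians set equal 1 gene of the list rose and 5 fell, and after quantile normalisation 0 passed. IFI16 (-1.19, 0.127) and IFI44 (-1.11, 0.139) had the most negative changes of that list, with signals at 192 h of 36.4 and 302.9, under the 93.9 and 767.6 at 96 h.

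Further lists had no member past the threshold, though with array medians set equal 2 cholesterol genes, 1 Notch, 1 stress and 1 immediate early gene fell and 1 immediate early gene rose. These were neuronal RNA-binding proteins (19 tested, median 0.09, which became -0.01 with medians set equal; CELF3 at 0.55, limma adjusted p = 0.0564, and CELF5 at 0.82, 0.337) and immediate early genes (21, 0.19; JUN at 0.89, 0.233, and ATF3 at 0.83, 0.265). Amino-acid and ER stress genes (46 tested) had a median of 0.04 (-0.06 with array medians set equal), with KDELR3 at -1.27 (0.0749) and CHAC1 at 1.30 (0.21). For p53 and apoptosis genes (30) it was 0.05 (-0.04 so scaled), with HRK at 1.17 (0.384) and BCL2L1 at 0.72 (0.121). For WNT genes (22) it was -0.01, with APCDD1 at -1.04 (0.22) and FZD1 at -0.71 (0.348), and for Notch genes (19) 0.04 (-0.05 so scaled), with DLK1 at -0.83 (0.178) and MAML2 at -0.69 (0.419). Cholesterol genes (25) had -0.14, with TM7SF2 at 0.94 (0.388) and ABCG1 at 0.54 (0.481), and HOX genes (11) 0.13, with HOXD1 at -0.45 (0.744) and HOXD13 at -0.40 (0.351). Ribosomal proteins (42) and the respiratory chain (56) both had -0.06. Without the 192 h array their medians were 0.14 and 0.06, so these shifts have no settled direction.

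Steps between neighbouring arrays show how the change was spread over time. For the 65 that rose the median step was 0.16 from 0 to 24 h, 0.25 from 24 to 48 h, 0.79 from 48 to 96 h and 0.13 from 96 to 192 h. For the 20 that fell it was -0.15, -0.14, -0.80 and -0.31. The fit favours genes whose change falls between 48 and 96 h, so that this step is the largest of the 3 among induced arrays in 62 and 17 of them is a description. From 96 to 192 h 18 of the 20 genes went down further, and 49 of the 65 went up further while 16 did not. The share of all genes that went up or down over this step is not given here, so these counts are a description. Over the same step the list median was -0.47 for interferon-stimulated and MHC class I genes and 0.24 for immediate early genes. All 4 steps ran the same way in 19 of the 65 rises and 5 of the 20 falls. Since separated groups fix the direction of the 48 to 96 h step, the 2.33% and 2.18% of all genes with 4 rising or 4 falling steps are no like comparison. The sharpest steps, by the 48 to 96 h change relative to the steps within the groups, were those of P4HTM (259.8 and 260.7 early, 414.8 and 412.4 late), MIAT, H2BC21, STMN4 and L1CAM among rises. Among falls they were those of ETV5, an ETS factor downstream of growth factor receptors (253.5 and 271.7 early, 128.0 and 147.3 late; -0.91), CPOX, EMB, PTN (189.0 and 195.7 early, 114.1 and 93.2 late; -0.87) and INAVA. Without the 192 h array P4HTM (limma adjusted p = 0.0845), CPOX (0.0834), PTN (0.122) and INAVA (0.143) did not pass, nor did P4HTM (0.052), PTN (0.0747) and INAVA (0.112) without the 24 h array and PTN (0.0544) and EMB (0.0949) without the 48 h array. ETV5 passed in each fit with 1 array left out.

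**Figure D5:**
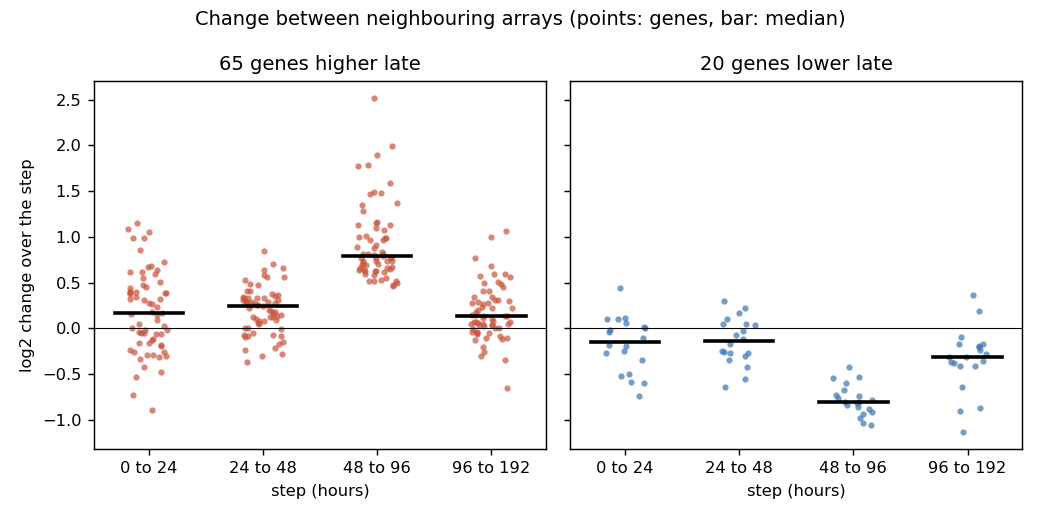
Log2 change between neighbouring arrays (y axis) for each step in hours (x axis), 1 point per gene and a black bar at the median, for the 65 genes that rose (left) and the 20 that fell (right). The medians of the 48 to 96 h step are 0.79 and -0.80, and from 96 to 192 h they are 0.13 and -0.31.

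The uninduced array, which the fit did not use, lay nearer to the early than to the late mean for 61 of the 65 rises and for all 20 falls. Over all tested genes it was nearer to the late mean for 37.9%. It was nearer to the late mean for 28.5% of the 627 uncalled genes with separated groups and a change at least as large as the smallest called. The 4 exceptions were GPR155, MTHFD2L, ADAMTS5 and JARID2, whose signal was lower on the early arrays than at 0 h. GPR155, a lysosomal cholesterol sensor, read 115.1 at 0 h, 60.1 and 74.4 early and 153.1 and 153.7 late (1.14 ± 0.18, limma adjusted p = 0.0205), with all 3 probe sets positive. JARID2, a cofactor of Polycomb complex 2, read 438.8, then 313.3 and 373.4, then 538.5 and 566.7 (0.68). ADAMTS5, a protease of aggrecan, read 314.7, then 188.6 and 263.3, then 373.1 and 421.7, and MTHFD2L, a mitochondrial folate enzyme, 142.5, then 97.2 and 106.8, then 181.7 and 199.4. In all 4 the early arrays were a dip between higher values. Without the 24 h and without the 192 h array JARID2 (adjusted p = 0.11 and 0.098), ADAMTS5 (0.117 and 0.118) and MTHFD2L (0.072 and 0.124) did not pass.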

How the data were processed

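Gene expression was measured on 5 single-channel arrays, 1 per induction time. The deposited values are log2 MAS5 signals: per the submitters' processing notes MAS5 and GCOS were used, without versions. The log step and the floor at a log2 value of 0 were read from the values, since 100% of the deposited log2 values, used as powers of 2, fell on multiples of 0.1 (tolerance 0.01). Signals were returned to the linear scale, 4.7 (the median over arrays of their 25th percentile) was added and log2 was taken, with no further scaling. The 62 control probe sets were dropped. GEO's platform annotation names 1 gene for 41091 of 54675 probe sets, 41037 of them found in the RefSeq table of GRCh38.p14, and the brightest probe set stood for each of 19775 genes. A mean over the 5 arrays of 17.9 or more (the overall median signal) was required, which left 11944. The fit was limma 3.58.1 in R 4.3.3 (eBayes with trend, two-sided, with 9.26 prior and 2 residual degrees of freedom, Benjamini-Hochberg over all genes tested, threshold 0.05) on the 4 induced arrays, and its code was tested on simulated data. The number of arrays limits the precision.

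The members and the 39 gene lists were chosen with earlier results of these data known. Named genes are MEIS1, the 5 late markers, the 12 largest rises and falls past the threshold, up to 4 called members per list (up to 2 uncalled where fewer than 2 passed), up to 5 genes per direction with a 0 h level nearer the late mean, and 5 per direction with the sharpest 48 to 96 h step. Y-linked genes and XIST were left out. The 14 alternatives changed the offset, scaling, filter, probe set rule, moderation, time model and spike-in covariate, or left out 1 array.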

Additional observations from a re-analysis of the deposited data

How the results depend on the processing

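The direction of all 85 calls was the same in the 14 alternatives, wherever the gene was tested. For genes with separated groups this was fixed in advance under another offset, filter or moderation. The same holds on a straight line over time and with 1 array left out. Only other scaling, the spike-in covariate and the probe set mean could have changed it. The count of calls moved more. Against 85 genes, of which 65 rose, 20 fell and 35 belong to the gene lists, there were 215 calls with array medians set equal (102 rose, 113 fell, 65 in lists) and 38 after quantile normalisation (32, 6, 18). A straight line over the 4 induced arrays gave 190 (121, 69, 58), the spike-in covariate 284 (178, 106, 81), and the mean over probe sets in place of the brightest 18 (16, 2, 7). Without the signal filter, and with moderation that took no account of signal level, there were 0 calls (0 rose, 0 fell, 0 in lists) with limma; the filter 4 times higher gave 32 falls among 100 calls. Leaving out 1 array gave between 52 and 272 calls (38 to 170 rises, 14 to 129 falls, 23 to 77 in lists); the other array of that group is then assumed to vary like the rest. Of the 85 genes 75 passed with medians set equal, 37 after quantile normalisation, 67 on the line, 85 with the covariate and 17 with the probe set mean. The causes were not tested. Among the genes named in the text, changes of 11 uncalled ones took the opposite sign under some alternative; other list members, not named, did so too. With 1 array left out MEIS1 ranged from -0.11 to 0.013 (opposite without the 192 h array), RPL30 from -0.40 to 0.039 and ESRP1 from -1.71 to 0.064 (192 h), HOXD1 from -1.09 to 0.18 (96 h), PNMT from -1.26 to 0.39 (96 h, and 0.34 without 48 h), HCN2 from -0.12 to 2.04 and THY1 from -0.047 to 0.32 (24 h). DBH ranged from -0.64 (96 h) to 0.67 and GATA3 from -0.022 (96 h) to 0.22, both also negative without the 24 h array (-0.072 and -0.005). With medians set equal DBH had -0.082, GATA3 -0.0038 and MYCN -0.012, with the covariate DBH -0.32 and GATA3 -0.020, and on the line DBH -0.22. PNMT had 0.29 on the line and RET -0.12 with the probe set mean. No paired analysis was possible because the labels give no replicate numbers and each time has 1 array.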

Other observations

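Some further called genes, chosen here after their values were seen, have roles in neurons. NPTX1, a secreted pentraxin that gathers glutamate receptors at synapses, rose from 182.3 and 218.6 early to 483.3 and 565.7 late (log2 change 1.37 ± 0.14, limma adjusted p = 0.00239). RUNDC3A (1.35), the axon-protecting enzyme gene NMNAT2 (0.91; 256.5 and 307.6 early, 480.9 and 588.5 late), the reelin adaptor gene DAB1 (0.92) and the seizure-related gene SEZ6L (1.05, all 5 probe sets positive) rose as well. SSTR2, the somatostatin receptor used for imaging of neuroendocrine tumours, rose from 561.8 and 532.8 early to 942.3 and 1084.8 late (0.88 ± 0.12, adjusted p = 0.00954), with all 3 probe sets between 0.82 and 0.96. Its 0 h signal of 708.4 lay between the groups. EEF1A2, the elongation factor form of neurons and muscle, rose from 1492.7 and 1556.7 to 2234.0 and 2452.4 (0.62). DAB1 did not pass without the 192 h array (0.124) and EEF1A2 not without the 24 h (0.203), 48 h (0.0818) or 192 h array (0.118).

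H2AC25, a histone gene outside the histone list, rose from 218.4 and 242.3 early to 525.4 and 579.0 late (1.24 ± 0.12, limma adjusted p = 0.00239), and passed in each of the 4 fits with 1 array left out. REST, the repressor that binds RE1, had 298.9 and 216.7 early and 163.0 and 212.4 late, a change of -0.44 that did not pass (adjusted p = 0.319). The median genomic span was 27.2 kb for the 65 genes that rose, 73.6 kb for the 20 that fell and 30.6 kb over the 11932 tested genes with a known span.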
